A study of Mus musculus with 6 samples.

Results

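miR-9 and miR-9* are the 2 arms of the miR-9 hairpin, a brain-enriched miRNA. Their rows were taken by name from the deposited read tables, 2 of 1055 mature miRNAs, and both held far more than 100 reads in each of the 6 libraries. Small RNA was sequenced from the whole brains of adult female siblings, 3 wild type and 3 Adar2-/-, on the SV129 background at 5.5 months of age, 1 library per brain. Both genotypes came from crosses of Adar2 heterozygous mice and were homozygous for the pre-edited allele Gria2 R/R, which keeps animals without ADAR2 alive, so that the controls carry this allele as well. ADAR2 deaminates adenosines of double-stranded RNA to inosine, and the comparison asks whether mature miRNA levels differ without it. The deletion is not restricted to a cell type, and whole brain mixes neurons, glia, vessels and meninges. Adar2 mRNA was not analysed here, so the genotype labels were not checked again. The paper reports lower Adar2 mRNA on a microarray and fewer A to G mismatches in the miRNA reads of Adar2-/- brains. Wild-type libraries held 12449633 to 23471819 reads on mature miRNAs and Adar2-/- libraries 18645810 to 23935544, and the lowest total was that of wild-type replicate 1. Each library had a sequencing lane of its own, so that lane and brain cannot be told apart. A level in RPM is the number of reads for every 1000000 reads on mature miRNAs in that library.

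A miRNA hairpin is cut by Drosha and Dicer into a short duplex of which usually the guide arm is kept in the silencing complex, while the other arm, marked by a star, is mostly degraded. miR-9 is known as a regulator of neural progenitors and of neuronal differentiation. Known targets of miR-9 include the transcription factors Hes1, Nr2e1 and Rest. Its star arm is unusual in having known targets of its own. These include the REST corepressor Rcor1 and, together with miR-124, the chromatin remodelling subunit Actl6a. Levels of mRNA were not analysed here.

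The mature sequences, taken from RefSeq, are shown 5′ to 3′ with the seed (bases 2 to 8), which selects targets, in capitals, because the arms of this hairpin carry different seeds.
miR-9: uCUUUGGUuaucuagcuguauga
miR-9*: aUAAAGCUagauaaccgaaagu
miR-9 has 23 bases, of which 11 are U and 4 are A. miR-9* has 22 bases, of which 11 are A, the base on which ADAR enzymes act. Among the 1677 other mature mouse miRNA names in RefSeq, 0 share the seed of miR-9 and 0 that of miR-9*.

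The closest other mature miRNAs of the mouse are the arms of miR-9b, which RefSeq places at the Mir9 loci on the opposite strand. They are shown because reads were mapped with about 2 mismatches allowed, again with the seed in capitals.
miR-9b-5p: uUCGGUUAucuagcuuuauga
miR-9b-3p: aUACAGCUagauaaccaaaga
Counted from 1 at the 5′ end of miR-9, miR-9b-5p starts opposite base 3 and differs by U5C and G18U over its 21 bases. miR-9b-3p differs from miR-9* at 4 of 21 bases (A4C, G17A, A20G and G21A, counted from the 5′ end of miR-9*). miR-9b was not among the 1055 miRNAs to which the reads were mapped. Reads of miR-9b-5p could therefore have been counted as miR-9. According to the paper, the local alignment disregards mismatches close to the end of a read, where A20G and G21A lie. Reads of miR-9b-3p could thus have been counted as miR-9* as well. The part of miR-9b in the counts of either arm was not tested.

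In the mouse 3 loci give the same pair of mature sequences, so the counts are sums over Mir9-1, Mir9-2 and Mir9-3. The hairpins as annotated by RefSeq are shown with both arms in capitals (miR-9 first, miR-9* second) since the loci differ only outside the arms.
Mir9-1: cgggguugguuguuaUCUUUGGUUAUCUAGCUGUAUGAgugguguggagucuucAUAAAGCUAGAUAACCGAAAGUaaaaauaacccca
Mir9-2: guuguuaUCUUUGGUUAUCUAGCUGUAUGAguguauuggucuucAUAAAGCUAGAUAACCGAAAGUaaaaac
Mir9-3: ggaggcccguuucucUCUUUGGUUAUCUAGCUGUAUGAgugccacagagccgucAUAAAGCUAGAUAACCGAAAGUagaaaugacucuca
Matched to NCBIM37, the assembly also called mm9, Mir9-1 lies at chr3:88019520-88019608, Mir9-2 at chr13:83878419-83878490 and Mir9-3 at chr7:86650150-86650239, each on the plus strand. Exact copies of either mature sequence were found at 3 sites of that genome, and each hairpin holds 1 of them. Mir9-1 lies in an intron of the lincRNA Gm3764, Mir9-2 overlaps an exon of the lincRNA C130071C03Rik, and Mir9-3 lies in an intron of the lincRNA AI854517. The nearest protein-coding gene to Mir9-2 is Mef2c, at a distance of 71735 bp. The loop between the arms has 16 bases in Mir9-1 and Mir9-3 and 14 in Mir9-2. In structures predicted by RNAfold, 19 of the 23 bases of miR-9 paired with miR-9* in each of the hairpins, and 9 adenosines of miR-9* were paired in Mir9-1 and Mir9-2 and 10 in Mir9-3. Reads of mature miRNAs cannot be assigned to a locus, and editing levels were not analysed here. In a separate microarray comparison with wild-type brain, the paper lists Mir9-2 among the few transcripts significantly lower in Adar2-/-. That array had fewer samples per genotype than the sequencing, and it was not analysed here.

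miR-9 was among the most abundant miRNAs of these brains and ranked 2 in each of the 6 libraries. The paper describes a small group of most abundant miRNAs, shared by all libraries, without a significant difference in abundance between genotypes. Apart from the most abundant member, the paper reports no editing in this group. The main text of the paper names only that member. By rank miR-9 belongs to this group, and miR-9* does not. miR-9 stood at 151020, 121262 and 105455 RPM in the wild-type brains (replicates 1 to 3, the order kept throughout) and at 110323, 109076 and 99104 RPM in the Adar2-/- brains. Wild-type replicate 1 was the highest and Adar2-/- replicate 3 the lowest, and the genotypes overlapped, since wild-type replicate 3 lay below Adar2-/- replicates 1 and 2. Wild-type brains averaged 125912 ± 23136 RPM (SD, n = 3) against 106168 ± 6149 RPM (SD, n = 3) without ADAR2, which is 0.843 of the wild-type mean. An exact permutation test of the difference of means gave p = 0.3 (two-sided, where 3 libraries against 3 allow no p below 0.1). As a share, miR-9 took between 9.91% and 15.1% of the mapped miRNA reads, with 95% Wilson intervals no wider than 0.0199 percentage points on each side, which cover counting error only because reads of the same molecule are not independent.

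The star arm was the most read of all star entries in each of the 6 libraries. miR-9* stood at 28362, 8512 and 10067 RPM in the wild-type brains and at 6692, 6359 and 8916 RPM in the Adar2-/- brains. Wild-type replicate 1 stood apart from the other 5 libraries, and without it the genotypes still overlapped, since Adar2-/- replicate 3 lay above wild-type replicate 2. Among all mature miRNAs miR-9* ranked 7 in wild-type replicate 1 and between 20 and 27 in the others. It averaged 15647 ± 11039 RPM (SD, n = 3) in wild-type and 7322 ± 1390 RPM (SD, n = 3) in Adar2-/- brains, the latter being 0.468 of the former (exact permutation test, two-sided, p = 0.2). Without wild-type replicate 1 the wild-type mean was 9290 ± 1099 RPM (SD, n = 2) and the ratio 0.788 (p = 0.3 in the same exact test). In brain as a whole, fewer cells that express a miRNA and less of it per cell cannot be told apart.

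**Figure D1:**
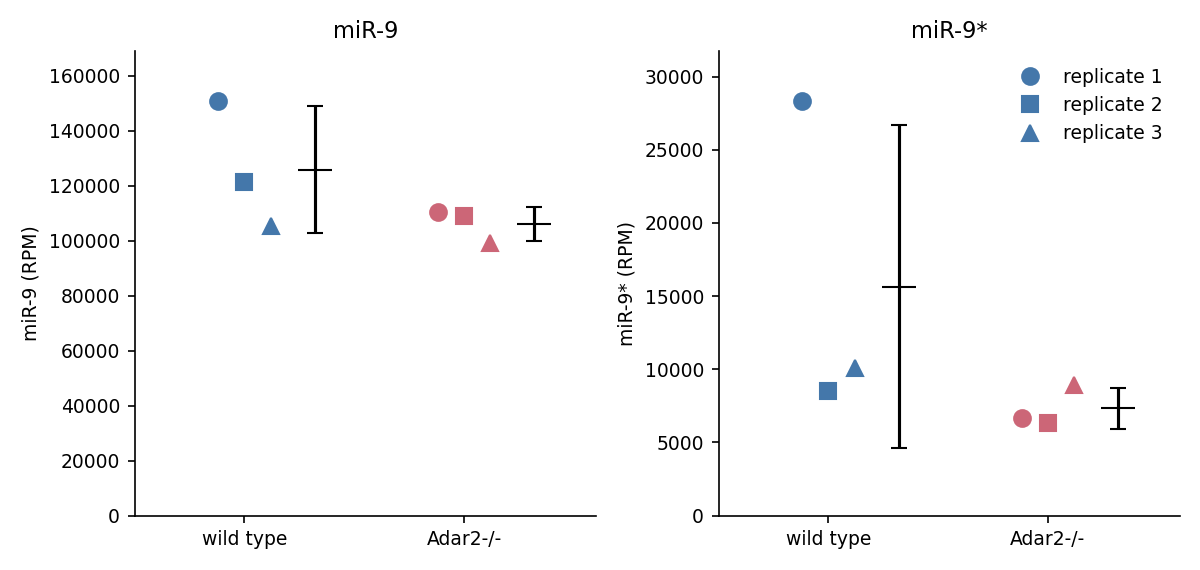
miR-9 (left) and miR-9* (right) in RPM for each library, with wild type in blue, Adar2-/- in red, the replicate number by symbol, and the mean ± SD of 3 libraries as black bars. Both axes start at 0, and the wild-type replicate 1 library is the highest for both arms, at 151020 RPM for miR-9 and 28362 RPM for miR-9*.

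Counts were compared between genotypes with edgeR's quasi-likelihood test in a fit over the 399 miRNAs that had 100 or more reads in each of the 6 libraries. For miR-9 the log2 fold change, where negative values are lower in Adar2-/-, was −0.25 (standard error 0.302, 95% interval −0.92 to 0.43, adjusted p = 0.988). For miR-9* it was −1.10 (standard error 0.469, 95% interval −2.14 to −0.05, unadjusted p = 0.0413, adjusted p = 0.988). Neither arm passed the Benjamini-Hochberg threshold of 0.05, which 0 of the 399 miRNAs (0.0%) passed. At an unadjusted p under 0.05 there were 13 miRNAs (3.26%), and 4 of them (1.0%) were lower in Adar2-/-. These 4 were miR-497*, miR-375, miR-30a* and miR-9*. DESeq2 called 1 of the 399 miRNAs, miR-497*, and gave miR-9* an adjusted p of 0.303. Over the alternatives the edgeR and DESeq2 adjusted p of miR-9* ran from 0.303 to 0.998.

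The estimate for miR-9* rested largely on wild-type replicate 1. Without this library its edgeR log2 fold change was −0.34 (95% interval −1.04 to 0.36, adjusted p = 0.800), and that of miR-9 was −0.09 (95% interval −0.66 to 0.47, adjusted p = 0.918). Without replicate 1 of both genotypes the values were −0.28 for miR-9* and −0.12 for miR-9. Without replicate 1, 18 of the 399 miRNAs (4.51%) passed the edgeR threshold, and neither arm was among them (adjusted p = 0.639 for miR-9* and 0.830 for miR-9).

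**Figure D2:**
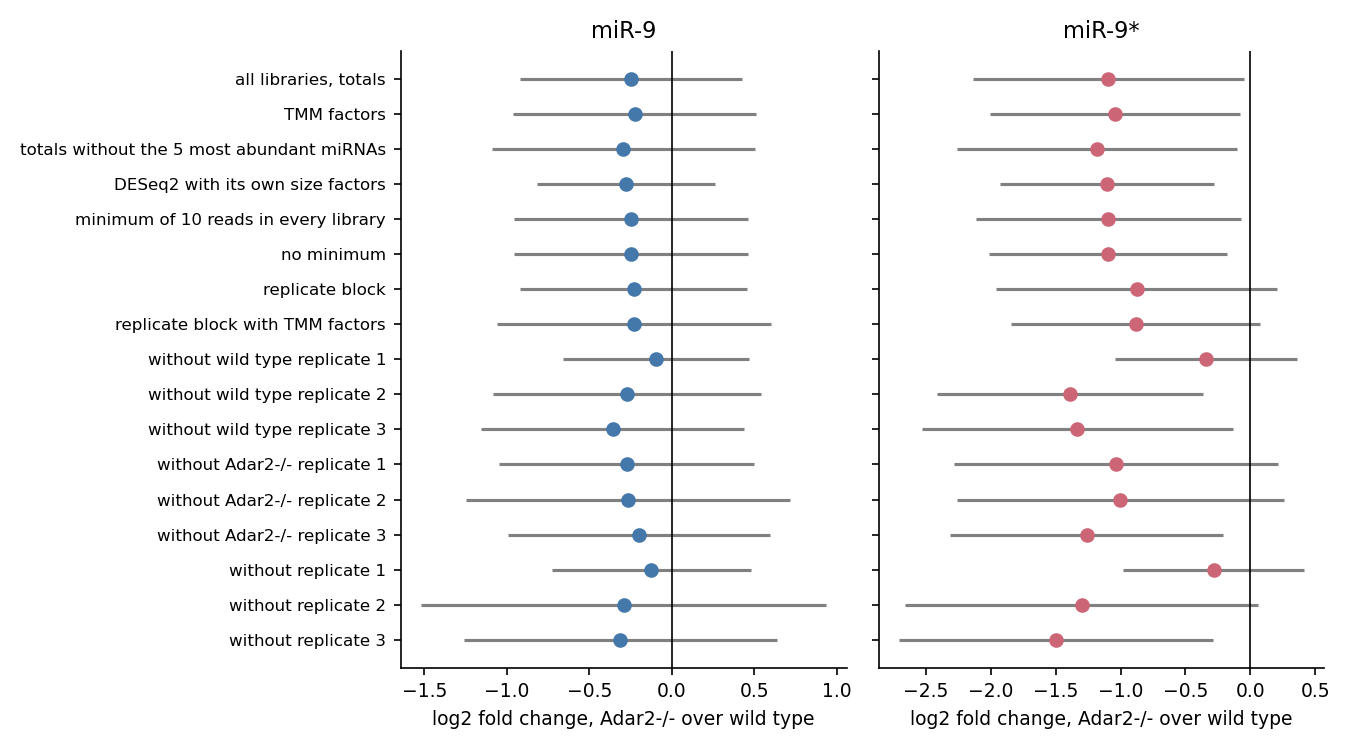
The log2 fold change of miR-9 (left) and miR-9* (right), Adar2-/- over wild type, with its 95% interval as a line, for all 6 libraries and for each alternative scaling, tool, filter, design or set of libraries named on the left. All estimates lie below 0, and those of miR-9* come closest to 0 without wild-type replicate 1 (−0.34) and without replicate 1 of both genotypes (−0.28).

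When libraries of the same replicate number were compared, both arms were lower in Adar2-/- in each of the 3 comparisons. The ratio of Adar2-/- to wild type was 0.731, 0.900 and 0.940 for miR-9 in replicates 1 to 3 and 0.236, 0.747 and 0.886 for miR-9*. Of the 399 miRNAs, 28 (7.02%) were lower in all 3 comparisons, and 17 (4.26%) were also lower by at least 1.3-fold in mean RPM, as was miR-9* and not miR-9. The labels do not say that brains of the same number belong together. The genotypes were fully separated, with Adar2-/- lower, for 12 of the 399 miRNAs (3.01%), and neither miR-9 nor miR-9* was among them.

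The share of the star arm was followed within each library, where the total of reads cancels out. For every 100 reads of miR-9 there were 18.8, 7.02 and 9.55 reads of miR-9* in the wild-type brains and 6.07, 5.83 and 8.997 in the Adar2-/- brains. Wild-type replicate 1 was again the highest, and Adar2-/- replicate 3 exceeded wild-type replicate 2. On the log2 scale the arm ratio of wild-type brains averaged −3.21 ± 0.73 (SD, n = 3) and that of Adar2-/- brains −3.87 ± 0.35 (SD, n = 3), which differ by −0.66 (exact permutation test, two-sided, p = 0.2). Without wild-type replicate 1 the difference was −0.26 (p = 0.5 in the same exact test). The hairpin as a whole, both arms summed, gave 17.9%, 13.0% and 11.6% of reads in the wild-type brains and 11.7%, 11.5% and 10.8% in the Adar2-/- brains.

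The same ratio was fitted with limma over the 101 hairpins with arms matched by name. Each arm had 100 or more reads in all 6 libraries. Star arms with a locus number in the name, such as miR-128-1* and miR-181a-1*, had no guide entry of that name and were left out. The 101 hairpins comprised 73 pairs of a star arm with its guide and 28 pairs named 5p and 3p. For the latter the less read arm was divided by the more read one. The miR-9 hairpin gave a difference of −0.66 (standard error 0.458, 95% interval −1.70 to 0.38, limma adjusted p = 0.765). The test called 0 of the 101 hairpins (0.0%), and 5 (4.95%) had an unadjusted p under 0.05 (miR-376a, miR-411, miR-495, miR-497 and miR-540). In 17 hairpins (16.8%) the ratio was lower in Adar2-/- in all 3 replicate numbers, as it was for miR-9, and in 6 (5.94%) the genotypes were fully separated with Adar2-/- lower, as they were not for miR-9. The median difference over the 101 hairpins was −0.24.

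Ordered by the mean log2 arm ratio over the 6 libraries, the miR-9 hairpin stood 62nd of 101 from the highest, at −3.54 ± 0.62 (SD, n = 6), against a median of −2.68 over the hairpins. miR-9* was thus the most read star arm, while its ratio to its guide lay below the middle of these hairpins. Its neighbours were miR-34c (−3.27 ± 0.15, SD, n = 6) and miR-20a (−3.24 ± 0.60) above and let-7d (−3.56 ± 0.84) and miR-532 (−3.72 ± 0.49) below, all within the spread of the miR-9 ratio between libraries. miR-124, which is enriched in neurons, stood 94th with −7.46 ± 0.58 (SD, n = 6), or 0.569 star reads per 100 guide reads against 8.59 for miR-9. Arms differ in how well they are ligated and amplified, so that a ratio between arms need not equal that of the molecules in the cell.

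**Figure D3:**
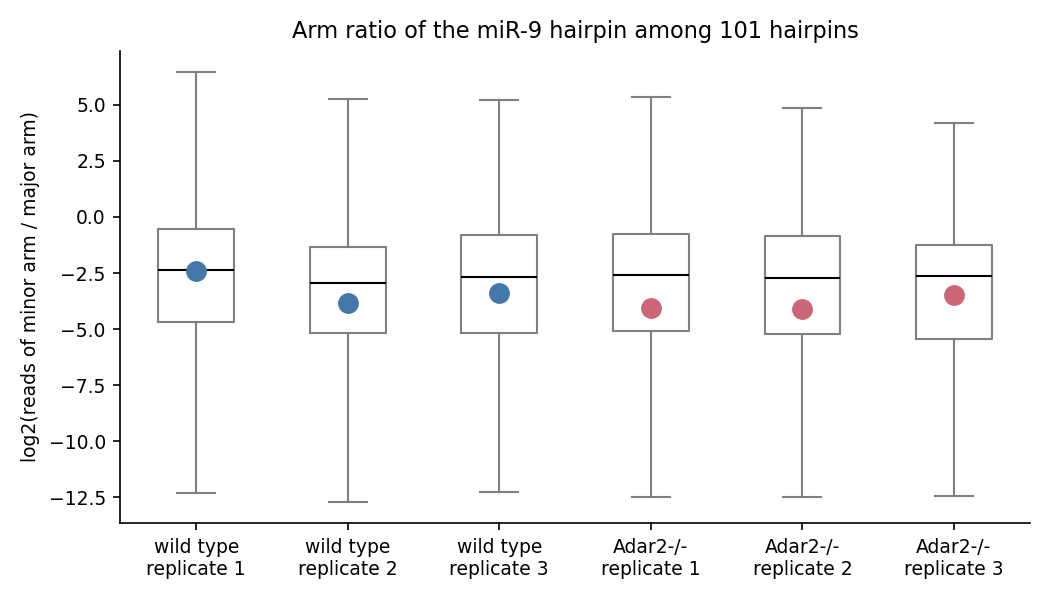
The log2 ratio of the less read to the more read arm in each library. Boxes show the quartiles and median of 101 hairpins, whiskers their full range, and the filled point is the miR-9 hairpin, which lies near the median in wild-type replicate 1 (−2.41) and below it in the other libraries (−4.10 to −3.39).

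Both arms differed in how much they varied between brains. The coefficient of variation (SD over mean) of RPM over the 6 libraries was 16.03% for miR-9, which placed it 38th from the least variable of the 399 miRNAs and 3rd among the 20 most read. For miR-9* it was 73.0%, which placed it 394th, whereas the median of the 399 was 30.4%. Without wild-type replicate 1 the values were 7.43% for miR-9, the 6th lowest of the 399 and the lowest among the 20 most read, and 19.2% for miR-9*, 99th of 399. Counting error alone gives at most 0.0729% for miR-9 and 0.283% for miR-9*.

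**Figure D4:**
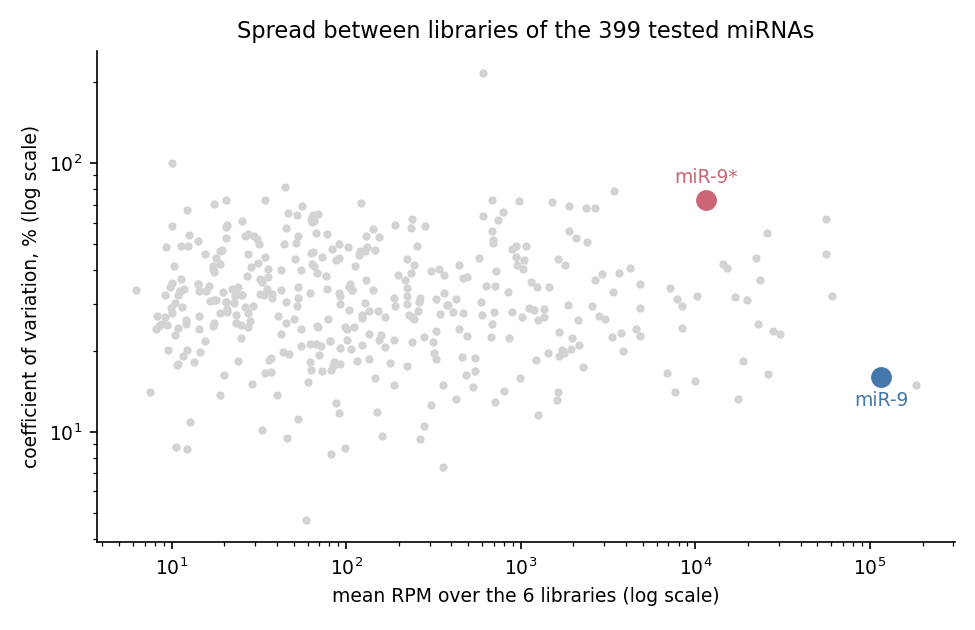
Mean RPM (log scale) and coefficient of variation over the 6 libraries in % (log scale) for the 399 miRNAs tested, in grey, with miR-9 in blue at 16.03% and miR-9* in red at 73.0%. Among miRNAs of similar level miR-9* has the larger spread, and miR-9 lies toward the lower edge.

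Wild-type replicate 1 held 3.33 times the median level of miR-9* in the other 5 libraries and 1.38 times that of miR-9. Of the 399 miRNAs, 108 (27.1%) were highest in this library, and 5 (1.25%) exceeded the median of the others by at least the factor of miR-9* (miR-375, miR-30d*, miR-323-3p, miR-153* and miR-9* itself). Entries with a star were highest in this library in 46 of 93 cases (49.5%) and other entries in 62 of 306 (20.3%). The arm ratio was highest in it for 37 of the 101 hairpins (36.6%). For miR-9 it exceeded the median of the other libraries by 1.42 on the log2 scale, the 17th largest excess of the 101, against a median of 0.18, and 17 hairpins (16.8%) reached that excess, miR-9 included. The largest belonged to miR-30d* (3.40), miR-30a* (2.54) and miR-154* (2.22), each against its guide. This library also had the lowest total of reads, and the part of depth or library preparation in these values was not tested.

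The likeness of other miRNAs to each arm was measured as the SD over the 6 libraries of the log2 ratio of their reads, which is small where a miRNA keeps a fixed ratio to the arm and does not depend on the scaling. Among 398 miRNAs, those closest to miR-9 were miR-218-2* (SD 0.12), miR-326 (0.13), miR-666-5p (0.14), miR-667* (0.14) and miR-338-5p (0.15), against a median of 0.52. They were read far less often than miR-9, at 16.9 to 25.7 RPM for miR-218-2* and 269 to 361 RPM for miR-326. miR-9* ranked 283rd in likeness to miR-9, with an SD of 0.62, and miR-124 ranked 294th with 0.64.

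Closest to miR-9* were miR-666-3p (SD 0.37), miR-30e* (0.40), miR-30a* (0.40), miR-128-2* (0.42) and miR-129-5p (0.42), against a median of 0.87, and its own guide ranked 61st. Of these 5, 3 are star arms, while star entries make up 92 of the 398 miRNAs compared. miR-30a* had an edgeR log2 fold change of −1.10 and miR-30e* of −0.64, each with an adjusted p of 0.988. As the mature sequences of these star arms from RefSeq show, their seed, in capitals, differs from that of miR-9*.
miR-30a*: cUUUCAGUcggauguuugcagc
miR-30e*: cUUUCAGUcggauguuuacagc
Aligned to miR-9* without gaps over at least 18 bases, they differed from it at 13 and 12 bases at best, far beyond the mismatches allowed in mapping.

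Across the 6 libraries the log2 RPM of both arms gave Pearson's r = 0.82 (exact permutation p = 0.107, adjusted p = 0.214 over 2 coefficients) and Spearman's rho = 0.14 (exact permutation p = 0.803, adjusted p = 0.803). Without the libraries farthest from the median of miR-9, wild-type replicate 1 and Adar2-/- replicate 3, r was −0.02, and without wild-type replicate 1 alone it was −0.24. The relation thus rests on wild-type replicate 1.

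Other miRNAs enriched in neurons did not follow miR-9 in a common direction. Of 10 listed, 9 were found by name and tested, and 6 had a positive and 3 a negative edgeR log2 fold change, with 0 past the threshold over all 399 miRNAs and 0 at an unadjusted p under 0.05. Their median log2 fold change was 0.20, against 0.0023 over the 399 miRNAs. miR-124, a driver of neuronal identity, stood at 14405, 13519 and 7203 RPM in wild type and at 11198, 14998 and 25453 RPM in Adar2-/- (log2 fold change 0.56, standard error 0.409, adjusted p = 0.988). It was highest in Adar2-/- replicate 3, where miR-9 was lowest, and the genotypes overlapped.

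The others ranged from −0.63 for miR-129-5p to 0.98 for miR-137, which takes part in neuronal maturation. miR-128 stood at 0.80, miR-212-3p at 0.57, miR-218 at 0.20, miR-138 at 0.05, miR-153 at −0.05 and miR-132, which is induced by neuronal activity, at −0.24 on the log2 scale. In wild-type replicate 1, where both arms of miR-9 were highest, the summed level of these 9 miRNAs was 42981 RPM. This lay below the 48628 to 78420 RPM of the other libraries, but the members went both ways. Relative to the median of the other libraries, miR-138 (0.415), miR-132 (0.578), miR-218 (0.617), miR-153 (0.675) and miR-212-3p (0.870) were lower there. miR-124 (1.07), miR-137 (1.20), miR-128 (1.51) and miR-129-5p (2.07) were higher. Only miR-129-5p among the 9 was highest there.

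Reads of miR-9 outnumbered those of miR-124 by 10.5, 8.97 and 14.6 times in the wild-type brains and by 9.85, 7.27 and 3.89 times in the Adar2-/- brains (exact permutation test of the mean ratio, two-sided, p = 0.2). For the star arms, miR-9* outnumbered miR-124* by 248, 135 and 148 times in the wild-type brains and by 112, 71.1 and 115 times in the Adar2-/- brains (p = 0.1 in the same exact test, the smallest it allows). The latter ratio separated the genotypes, with Adar2-/- lower, but so did the ratio of miR-9* to 150 of the 398 other miRNAs tested (37.7%) and to 33 of the 92 other star entries (35.9%), so that the separation is not particular to miR-124*. miR-124* itself averaged 81.9 ± 28.4 RPM (SD, n = 3) in the controls and 75.5 ± 15.0 RPM (SD, n = 3) in the Adar2-/- brains. These ratios were chosen after values of these data were known.

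Markers of other cell types were read in all libraries, and 0 of the listed miRNAs were at 0 reads in all of them. Of those tested, 0 passed the threshold over all 399 miRNAs. The 4 oligodendrocyte miRNAs went both ways in wild-type replicate 1. miR-219-3p and miR-338-5p were highest there, at 1.69 and 1.47 times the median of the other libraries, whereas miR-219-5p and miR-338-3p were lowest there, at 0.449 and 0.545 times that median. Their sum of 1782 RPM there, against 1293 to 1602 RPM in the other libraries, was mostly miR-219-3p (1342 RPM). The vascular sum of 4 miRNAs was 62688 RPM there and 50321 to 80298 RPM elsewhere. For the 7 blood and immune miRNAs it was 2052 against 1882 to 4035 RPM, for the 5 of choroid plexus and cilia 1203 against 1191 to 2045 RPM and for the 4 of muscle and liver 2324 against 2242 to 3359 RPM.

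The 3 miRNAs of the sensory cluster summed to 113581 RPM in wild-type replicate 1, within the 19158 to 186903 RPM of the other libraries. The 6 epithelial and neuroendocrine miRNAs summed to 9562 RPM there and to 794 to 9281 RPM elsewhere. Of this sum, 3294 RPM were miR-375, a miRNA of neuroendocrine cells, which stood at 45.9 times the median of the other libraries. Without miR-375 the other 5 summed to 6267 RPM in wild-type replicate 1, within the 738 to 9210 RPM of the other libraries. Of these 5, miR-200c was highest in wild-type replicate 1, and miR-200a, miR-200b, miR-141 and miR-429 were highest in Adar2-/- replicate 1. Whether admixed tissue has a part in the level of miR-9* in this library was not tested.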

How the data were processed

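The authors removed adaptors with Cutadapt, mapped reads with NextGenMap at about 2 mismatches to the mature miRNAs of miRBase release 16, discarded reverse-strand hits and gave a weight to each read that hit more than 1 miRNA equally well. They deposited the reads per miRNA as raw counts without normalization, in 3 tables of 1 wild-type and 1 Adar2-/- library. How weights became whole numbers is not given in the sources used here. Genotype was read from the column names and the replicate number from the table. A total of 12 blank lines were dropped.

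Counts were tested with edgeR 4.0.16 (glmQLFit, glmQLFTest) in R 4.3.3, with total mapped miRNA reads as library size, for miRNAs that had 100 or more reads in each library. Log2 arm ratios, with 0.5 added to each count, were tested with limma 3.58.1 (eBayes with trend). Hairpins were folded with RNAfold of ViennaRNA 2.7.2. Sequences came from RefSeq (GRCm38.p6) and positions from exact matches to NCBIM37. Other values used Python 3.11.15 and scipy 1.17.1. Samples were called replicates as the labels give them. The procedures were tested on simulated data. The alternatives were other scalings, DESeq2 1.42.0, other minimum counts or pseudocounts, a replicate block, and libraries left out. Of the neuronal list, miR-212 was matched to miR-212-3p after the tables were seen, and miR-129-3p was not matched.

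The members and lists were chosen with earlier results of these data known. Named are both arms, the 5 miRNAs most like each arm, the neuronal list, the neighbours in the order of arm ratios, miR-124 with its star arm and miRNAs close in sequence. Other miRNAs with an unadjusted p under 0.05 or with the largest excess in wild-type replicate 1 were named after their values were seen.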

Additional observations from a re-analysis of the deposited data

How the results depend on the processing

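Both arms and the arm ratio were lower in Adar2-/- under all alternatives run, and none passed its threshold in edgeR, DESeq2 or limma. The exact permutation tests allow no p below 0.1 with these numbers of libraries, so they could not have passed 0.05. Leaving out a library or replicate number moved the edgeR log2 fold change between −0.36 and −0.09 for miR-9 and between −1.50 and −0.28 for miR-9*, the difference of log2 arm ratios between −0.97 and −0.26, and the difference of mean RPM between −29973 and −7191 for miR-9 and between −11892 and −1967 for miR-9*. Other scalings, tools, filters and designs gave −0.29 to −0.23 for miR-9 and −1.18 to −0.88 for miR-9*. The count of 0 calls in edgeR became 1 with DESeq2 (miR-497*) and ran from 0 to 18 when a library or replicate number was left out, with the 18, all higher in Adar2-/-, found without replicate 1. The count of 0 hairpins called by limma became 1 (miR-495) without wild-type replicate 1 and ran from 0 to 1. Pearson's r between the arms turned to −0.24 without wild-type replicate 1, ran up to 0.89 without another library and was 0.54 with TMM factors. The cause of these changes was not tested. With the replicate block the log2 fold change of miR-9* was −0.88 (edgeR adjusted p = 0.983) and that of miR-9 −0.23. The block changed no call. Deviations of libraries with the same number correlated at −0.0010, −0.08 and −0.01, so the numbers were not taken to pair the brains. The spread between libraries of a genotype, in which brain, lane, preparation and depth cannot be told apart, was far above counting error for both arms.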
